A study of Mus musculus with 21 samples.

Results

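The FGF ligands and FGF homologous factors measured here were 10 of the 52550 genes in the count table. The ligands were Fgf1, Fgf2, Fgf8, Fgf9, Fgf10 and Fgf23, and the FGF homologous factors were Fgf11, Fgf12, Fgf13 and Fgf14. They were chosen by name, through the symbols of their Ensembl identifiers. No rule on measured values was used, though earlier results of these data were known. Of the 10 genes, 8 passed the filter on low counts and were tested. Fgf23 passed it through the SGNs of P1 alone, and Fgf2 through the SGNs of P8 and P30 and glial cells. Their entry into the tests thus depended on those groups, and both are left out of the counts of members below. Fgf8 and Fgf14 did not pass it in any group and are given as values with no test.

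Secreted FGFs bind heparan sulfate at the cell surface and activate receptor tyrosine kinases of the Fgfr family, which signal through ERK. Fgf1 and Fgf2 lack a classical signal peptide, and Fgf23 is an endocrine FGF that needs the coreceptor klotho. The FGF homologous factors have the fold of an FGF but stay inside the cell, where they are best known for binding the tail of voltage-gated sodium channels and setting how these channels inactivate. In the inner ear, FGF signals are known for induction of the otic placode and for patterning of the organ of Corti.

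All animals were C57BL/6 mice that carried a Cre allele and the Rosa26-CAG-loxp-stop-loxp-tdTomato (Ai9) reporter. SGNs, the neurons that carry signals from cochlear hair cells to the brain, were labelled with ShhCre/+ and picked by hand as tdTomato+ cells, with 5 ages from E15.5 through P1, P8 and P14 up to P30, and with 69 to 195 cells in a library. HCs were labelled with Atoh1-CreER after tamoxifen at P0 and P1 and were collected at P12, about 1200 cells a library, from cochlear and vestibular organs together. Glial cells were labelled with vGlut3-iCreER after tamoxifen at P2 and P3 and were picked at P8 from the SGN area, with 86 to 125 cells in a library. Each of the 7 groups had 3 replicates, and nothing in the labels ties a replicate to an animal, so p-values measure only the spread between these samples. For HCs the study's methods give FACS, while the labels describe manual sorting. Each cell type came from its own Cre line, so line and cell type cannot be told apart. HCs were taken at P12, an age at which no SGNs were taken. The way of collection in the methods and the number of cells also differed between HCs and the other cells, and cannot be told apart from cell type.

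The 21 libraries held 10368240 to 37287489 counts. Values below are CPM, that is counts scaled to the library total and by the TMM method, and 3 counts in a library corresponded to 0.0861 to 0.291 CPM. The 11 SGN markers summed to 4990 to 5214 CPM in E15.5 SGNs, 6937 to 9722 CPM in P1 SGNs, 14960 to 15712 CPM in P8 SGNs, 18632 to 22259 CPM in P14 SGNs and 20905 to 24750 CPM in P30 SGNs, and to 594 to 643 CPM in HCs and 163 to 1562 CPM in glial cells. The 7 HC markers summed to 5368 to 5758 CPM in HCs and 145 to 745 CPM in SGNs, and the 5 glial markers to 2301 to 2951 CPM in glial cells and 29.7 to 437 CPM in SGNs. The 5 myelin markers ran from 35.9 to 2793 CPM in SGNs, with the P8 libraries at 1702 to 2793 CPM. Replicate 1 had the most connective tissue markers at P1, P8, P14 and P30, with 617, 626, 294 and 149 CPM against at most 122 CPM in the other replicates of those ages. Mitochondrial genes took 9.57% to 13.5% of counts in E15.5 SGNs, 16.4% to 19.5% in P1 SGNs, 20.5% to 22.6% in P8 SGNs, 22.2% to 24.2% in P14 SGNs and 17.9% to 22.1% in P30 SGNs. Glial replicate 1 stood apart: its SGN markers summed to 1562 CPM against 345 and 163 CPM in the other replicates, and Fgf9, Fgf10 and Fgf11 were also highest there. Results of the members against glial cells are therefore given with and without it. In the HC libraries, 4 supporting cell markers summed to 1870 to 1964 CPM, and in the glial libraries 6 connective tissue markers summed to 2308 to 3785 CPM. The part of these cells, and of the mitochondrial share, in the values below was not tested.

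Fgf10, Fgf11 and Fgf23 had their highest SGN mean at P1, and the sequences before their start sites are shown for that reason. Each line is the 250 bases before the RefSeq start (GRCm38.p6), 5′ to 3′ on the strand of the gene, at chr13:118714449-118714698 (+), chr11:69802281-69802530 (-) and chr6:127072652-127072901 (+). Capitals mark matches, on either strand, to 6 motifs searched. The TATA box was searched as TATAAA, the GC box as GGGCGG, the CCAAT box as its own 5 letters, an E-box known from neuronal bHLH factors as CAGATG, the core of a cAMP response element as TGACG, and a GATA factor site as AGATAA.
Fgf10: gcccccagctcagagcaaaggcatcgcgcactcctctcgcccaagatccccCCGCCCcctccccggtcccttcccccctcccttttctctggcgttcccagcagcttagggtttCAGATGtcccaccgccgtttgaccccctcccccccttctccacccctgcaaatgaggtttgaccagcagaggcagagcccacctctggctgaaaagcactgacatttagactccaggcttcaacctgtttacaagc
Fgf11: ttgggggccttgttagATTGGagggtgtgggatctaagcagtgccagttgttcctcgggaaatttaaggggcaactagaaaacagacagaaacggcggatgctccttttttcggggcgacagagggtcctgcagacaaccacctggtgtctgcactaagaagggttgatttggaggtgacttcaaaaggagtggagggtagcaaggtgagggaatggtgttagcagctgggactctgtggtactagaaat
Fgf23: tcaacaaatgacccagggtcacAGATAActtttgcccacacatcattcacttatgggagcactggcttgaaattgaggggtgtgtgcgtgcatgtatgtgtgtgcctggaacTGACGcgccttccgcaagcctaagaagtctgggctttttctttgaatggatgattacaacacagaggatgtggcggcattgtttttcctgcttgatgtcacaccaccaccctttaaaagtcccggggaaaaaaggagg
No motif was found in all 3 windows. The Fgf10 window held GGGCGG on the other strand and CAGATG, which occur in 32.7% and 14.4% of 32851 windows of the same length. The Fgf11 window held CCAAT on the other strand, as did 33.8% of windows. The Fgf23 window held TGACG and AGATAA, found in 17.8% and 9.99% of windows. GC content was 61.2% for Fgf10, 51.2% for Fgf11 and 48.4% for Fgf23, against a median of 52.4% and quartiles of 45.2% and 61.2% over all windows. RefSeq windows were on hand for 8 of the 10 members. GENCODE starts the Fgf10 gene upstream of this window, at chr13:118669791-118792115, and the Fgf11 gene downstream of it, at chr11:69796068-69801857 on the minus strand.

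Fgf1, the ligand also called acidic FGF, rose about as far as Fgf12 over the ages of SGNs. Its level was 17.9, 60.3 and 43.3 CPM at E15.5, 66.3, 87.9 and 98.9 CPM at P1, 743, 738 and 865 CPM at P8, 1054, 1168 and 1464 CPM at P14, and 2001, 1829 and 2723 CPM at P30. At each step every library of the later age lay above every library of the earlier one. From P1 to P8 Fgf1 rose 9.49-fold (log2 change 3.25 ± 0.25 SE, adjusted p = 1.19e-06), and from E15.5 to P30 it rose 55.2-fold (5.79 ± 0.32, adjusted p = 3.40e-09). In bulk samples more RNA per cell and more cells that express a gene cannot be told apart. The single steps around that rise did not pass the test. They were 1.11 on the log2 scale from E15.5 to P1 (adjusted p = 0.0610), 0.64 from P8 to P14 (0.129) and 0.79 from P14 to P30 (0.142). The first of these was called with DESeq2 (1.02, adjusted p = 0.0113), with edgeR (1.06, 0.0419), with the filter at CPM over 10 (1.07, 0.0422) and without E15.5 replicate 2 (1.47, 0.0351). The step from P8 to P30, compared after the data were seen, was called, at 1.43 ± 0.18 (adjusted p = 0.00013). HCs held 12.6, 11.7 and 13.5 CPM and glial cells 23.7, 83.8 and 10.9 CPM, so that E15.5 SGNs and glial cells overlapped.

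Fgf10, a ligand of the Fgfr2b isoform, followed another course. It measured 144, 71.0 and 131 CPM at E15.5, 323, 348 and 292 CPM at P1, 204, 305 and 286 CPM at P8, 130, 274 and 188 CPM at P14 and 149, 145 and 101 CPM at P30. It rose 2.95-fold from E15.5 to P1 (log2 change 1.56 ± 0.28, adjusted p = 0.00244), with no overlap between the ages. From P1 to P30, a comparison added after the data were seen, it fell by 1.32 ± 0.26 on the log2 scale (adjusted p = 0.00131). From P8 to P30 it fell by 1.02 ± 0.27 (adjusted p = 0.0266), also added, a call lost without P8 replicate 2 or 3 or any replicate of P14 or P30 (log2 changes of -1.10 to -0.82). None of the single steps after P1 was called, with log2 changes of -0.30, -0.47 and -0.55. At P30 it had returned to a level that overlapped E15.5, 1.18-fold apart (adjusted p = 0.548, 95% interval of the log2 change -0.40 to 0.88). Gm16263, an antisense gene, shares 123 exon bases with Fgf10, and reads on both could not be told apart if the counting ignored strand.

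Fgf9, a ligand with a wide choice of receptors, stepped up once. Its level was 23.6, 15.9 and 33.7 CPM at E15.5 and 71.6, 107 and 47.8 CPM at P1. At the 3 later ages its libraries ran from 68.6 to 113 CPM, with means of 106 ± 1.08 CPM (SD, n = 3) at P8, 96.1 ± 20.5 CPM at P14 and 93.1 ± 22.6 CPM at P30. It rose 3.09-fold from E15.5 to P1 (log2 change 1.63 ± 0.37, adjusted p = 0.0113) and 3.74-fold from E15.5 to P30 (1.90 ± 0.37, adjusted p = 0.000757). The first call missed the threshold with sample quality weights (adjusted p = 0.0588) and with only the groups compared (1.59, adjusted p = 0.0575). No later step was called. The log2 change from P8 to P30 was -0.29 with a 95% interval of -0.84 to 0.26.

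Fgf23, best known as a phosphate-regulating hormone from bone, stood out at P1. The 3 replicates held 0, 4 and 100 counts at E15.5, 897, 793 and 278 counts at P1, 6, 0 and 12 counts at P8, 14, 4 and 0 counts at P14, and 13, 16 and 14 counts at P30. In CPM the P1 libraries were at 25.8, 31.5 and 11.8, and no library of any other group was above 4.87. Since the gene passed the filter through the P1 group alone, its p-values between ages are not given as support for this pattern. By summed counts, the P1 mean was 12.4 times the E15.5 level (95% counting interval 10.2 to 15.2), but 100 of the 104 counts at E15.5 lay in replicate 3, and without it the ratio was 204 (79.6 to 748). It was 111.5 times the P8 level (70.6 to 188). Most low counts were even, so a fragment may give 2 counts, and these intervals, which cover counting error only, would then be too narrow. At P30 the level was 0.433, 0.880 and 0.755 CPM, low but present in all 3 libraries. All 3 HC and all 3 glial libraries held 0 counts, which allows up to 0.178 CPM in an HC library and 0.291 CPM in a glial library. The P1 SGN mean was at least 161-fold higher than in HCs and at least 97.4-fold higher than in glial cells, against a floor of 3 counts per library, and at least 80.7-fold and 48.7-fold higher if each fragment gave 2 counts.

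The other ligands were scarce. Fgf2, or basic FGF, was at 0.403, 5.37 and 5.06 CPM at E15.5, 0.230, 0.795 and 0.0852 CPM at P1, 3.24, 2.36 and 1.70 CPM at P8, 1.08, 0.268 and 0.988 CPM at P14 and 2.20, 3.80 and 2.91 CPM at P30. The P1 libraries lay below all P8 and P30 libraries. Since the gene passed the filter at P8 and P30 but not at P1, p-values of P1 against those ages are not given as support. The change from P1 to P30, compared after the data were seen, was 3.32 ± 1.13 on the log2 scale. It was called, but not without any 1 of the P1 replicates or without P30 replicate 2 or 3. From E15.5 to P1 the log2 change was -3.20 and not called (adjusted p = 0.0844), but it was called without E15.5 replicate 1 (-4.24, adjusted p = 0.0108). Without that replicate the P1 to P8 change was 3.13, and with all replicates it was not called. Fgf2 shares 640 exon bases with Nudt6 on the opposite strand, and the strand setting of the counting is not given in the sources used here, so its low counts are uncertain. Fgf8, which inner hair cells are known to make, held 0 counts in all 6 SGN libraries of P14 and P30 and at most 13 counts in any P1 or P8 library. At E15.5 it held 0, 91 and 2 counts. HCs held 21, 55 and 12 counts of Fgf8, or 1.25, 2.37 and 0.484 CPM, and glial cells held 0, 12 and 0 counts.

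**Figure D1:**
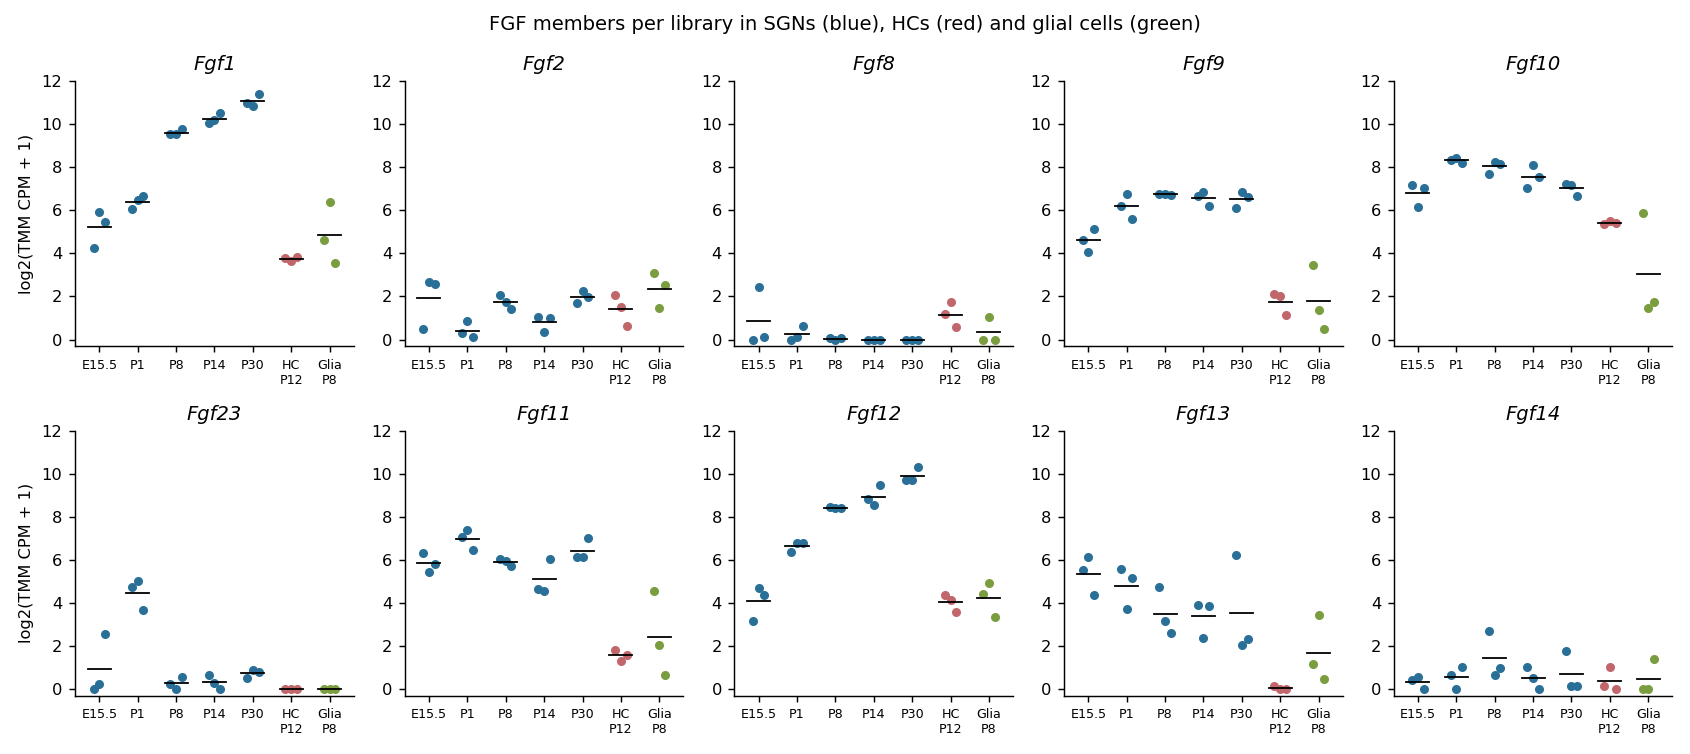
Level of each of the 10 members in every library, as log2(TMM CPM + 1), by group; points are single libraries (3 a group) and lines are means of the log2 values. Fgf1 and Fgf12 climb with age to 2723 and 1268 CPM in the highest P30 library, Fgf23 stands out at P1, and Fgf2, Fgf8 and Fgf14 stay below 8 CPM in all groups.

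Among the FGF homologous factors, Fgf12 rose from E15.5 through P8 in SGNs. Its level was 7.99, 25.2 and 20.1 CPM at E15.5, 82.4, 108 and 110 CPM at P1, 348, 344 and 339 CPM at P8, 452, 370 and 714 CPM at P14 and 845, 836 and 1268 CPM at P30. No library of a later age overlapped the age before it. Fgf12 rose 5.81-fold from E15.5 to P1 (log2 change 2.54 ± 0.47, adjusted p = 0.0033), 3.50-fold from P1 to P8 (1.81 ± 0.26, adjusted p = 0.000269) and 55.3-fold from E15.5 to P30 (5.79 ± 0.44, adjusted p = 6.88e-08). The first of these was lost with no CPM filter (2.56, adjusted p = 0.0748). The step from P14 to P30 was 0.93 ± 0.21 (adjusted p = 0.142) and was not called. It was called without P14 replicate 3, the highest P14 library, at 1.21 (adjusted p = 0.0247). The change from P8 to P30, compared after the data were seen, was called at 1.44 ± 0.21 (adjusted p = 0.000551). HCs at 20, 16.5 and 11.1 CPM and glial cells at 20.1, 29.5 and 9.32 CPM overlapped E15.5 SGNs.

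Fgf11 had its highest SGN mean at P1. It was at 79.7, 42.4 and 55.4 CPM at E15.5, 135, 165 and 87.3 CPM at P1, 64.9, 61.0 and 51.8 CPM at P8, 24.1, 22.8 and 66.1 CPM at P14 and 69.2, 69.3 and 129 CPM at P30. It rose 2.25-fold from E15.5 to P1 (log2 change 1.17 ± 0.33, adjusted p = 0.0334) and fell by 1.08 ± 0.31 on the log2 scale from P1 to P8 (adjusted p = 0.0304). Both calls were near the thresholds. The first was lost under 9 alternatives, among them leaving out E15.5 replicate 2 or 3 or P1 replicate 1 or 2, with log2 changes of 0.94 to 1.40 over all alternatives. The second was lost without P1 replicate 1 or 2 or any of the P8 replicates (-1.32 to -0.89 over all alternatives). The higher P30 than P14 values, 1.36 ± 0.39 apart, were not called (adjusted p = 0.324), and P14 replicate 3 at 66.1 CPM came close to the P30 libraries.

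Fgf13 varied widely within groups. Its level was 45.5, 69.6 and 19.8 CPM at E15.5, 46.2, 12.1 and 34.9 CPM at P1, 25.5, 8.02 and 5.19 CPM at P8, 14.1, 4.28 and 13.6 CPM at P14 and 75.1, 3.19 and 4.10 CPM at P30. No step between ages was called, and from E15.5 to P30 the log2 change was -1.60 with a 95% interval of -3.58 to 0.38. Without P30 replicate 1 this change was called, at -3.46 (adjusted p = 0.0405). P30 replicate 1 was the highest of all SGN libraries. Of the P30 libraries it also held the most connective tissue markers (149 CPM against 5.45 and 3.78 in the other P30 replicates), outer HC markers (255 against 36.4 and 48.9) and myelin markers (486 against 124 and 35.9). The same library held the least of the 7 HC markers (266 CPM against 297 and 349) and of the inner HC marker (5.40 against 36.4 and 51.2). Prph, an intermediate filament gene known to mark type II SGNs, was at 171 CPM in that library against 3.41 and 0.647 CPM in the other P30 replicates, and the sodium channel gene Scn10a was at 57.7 CPM against 0.110 and 0 CPM. At E15.5 Prph and Scn10a were highest in replicate 2, at 358 and 40.6 CPM, the library with the most Fgf13. At P8 and P14 both genes were highest in replicate 1, as was Fgf13. At P1 both were highest in replicate 2, the library with the least Fgf13. Prph was nearly even there, at 43.2, 46.7 and 42.7 CPM, and Scn10a was at 0.172, 0.676 and 0.0852 CPM. The part of the mix of SGN types, and of other cells, in the Fgf13 values was not tested. Prph and Scn10a are named here after their values were seen, and Prph is also the gene most like Fgf13 by the rule given below. Fgf14 was low in all groups, between 0 and 5.43 CPM, with 176 of its 432 counts in P8 replicate 1. It shares 220 exon bases with the antisense gene Gm28932.

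**Figure D2:**
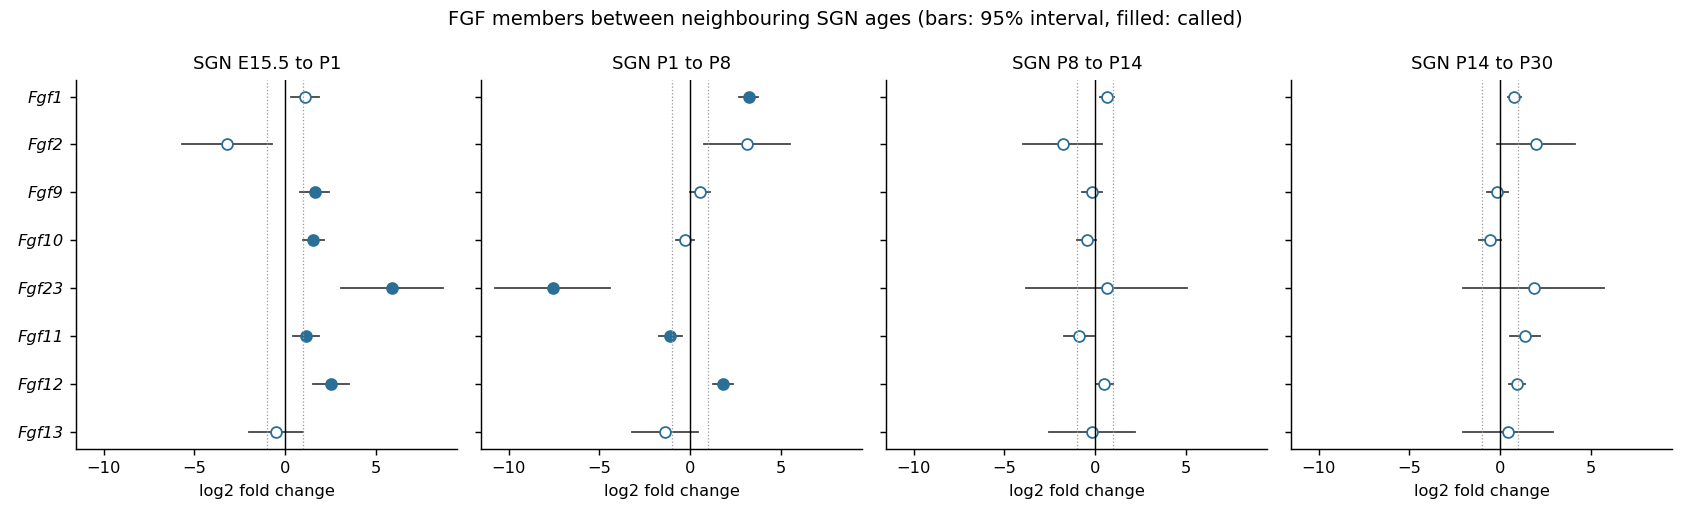
Log2 fold change of the 8 tested members between neighbouring SGN ages, later minus earlier; bars are 95% intervals, filled points were called (adjusted p under 0.05 and over 2-fold), and dotted lines mark 2-fold. Calls fall in the first 2 steps, and none was made from P8 to P14 or from P14 to P30. Fgf23 passed the filter through P1 alone.

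Leaving out Fgf2 and Fgf23, 4 of 6 members rose from E15.5 to P1, namely Fgf9, Fgf10, Fgf11 and Fgf12, where 5.08% of the 15113 genes tested rose and 3.18% fell. From P1 to P8, 2 of 6 rose (Fgf1 and Fgf12) and 1 fell (Fgf11), with 4.29% and 3.15% of all genes. No member was called from P8 to P14, where 0.251% of all genes were called higher and 0.285% lower. None was called from P14 to P30, where the called shares were 0.0331% and 0.0265%. In each of these steps 3 of the 6 members had an unadjusted p under 0.05 in limma. That threshold is looser than the one for calls, and no share of all genes at it is given. These counts therefore say nothing about the members as a group. From E15.5 to P30, 3 of 6 rose (Fgf1, Fgf9 and Fgf12) and none fell, against 18.4% and 16.2% of all genes. For the comparisons added after the data were seen, 2 rose and 1 fell from P8 to P30 (2.02% and 2.69% of all genes), and likewise 2 rose and 1 fell from P1 to P30 (10.2% and 9.40%). The median log2 change of the 6 members was 1.37 from E15.5 to P1, 0.14 from P1 to P8 and 1.23 from E15.5 to P30, beside 0.07, -0.01 and -0.01 over all genes. The marker sums and mitochondrial shares given above also differed between these ages. These comparisons share libraries, so their counts are not independent.

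The changes shifted the mix of each role, compared per length within a library. Of the summed FGF homologous factors per kb, Fgf11 was 53.9% ± 16.3 (SD, n = 3), Fgf13 29.5% ± 13.6 and Fgf12 16.4% ± 8.65 at E15.5. At P1 Fgf11 was 50.4% ± 10.1 and Fgf12 39.8% ± 8.27. From P8 on Fgf12 led, with 82.9% ± 3.03 at P8, 92.1% ± 1.60 at P14 and 89.8% ± 2.71 at P30. Of the summed secreted members, Fgf10 was 59.7% ± 17.4 at E15.5 and 59.9% ± 3.41 at P1, and Fgf1 was 67.5% ± 3.23 at P8, 80.5% ± 5.01 at P14 and 90.1% ± 2.85 at P30. Fgf23 was 10.6% ± 3.62 of the secreted sum at P1 and 1.94% ± 3.11 at E15.5. The homologous factors together made up 46.8% of all 10 members in E15.5 SGNs and 41.6% in P1 SGNs, as group means. The P8, P14 and P30 means were 35.3%, 35.1% and 40.5%. In HCs Fgf10 was 67.1% ± 3.63 of the secreted sum, and Fgf12 was 86.7% ± 2.11 of the homologous factors.

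**Figure D3:**
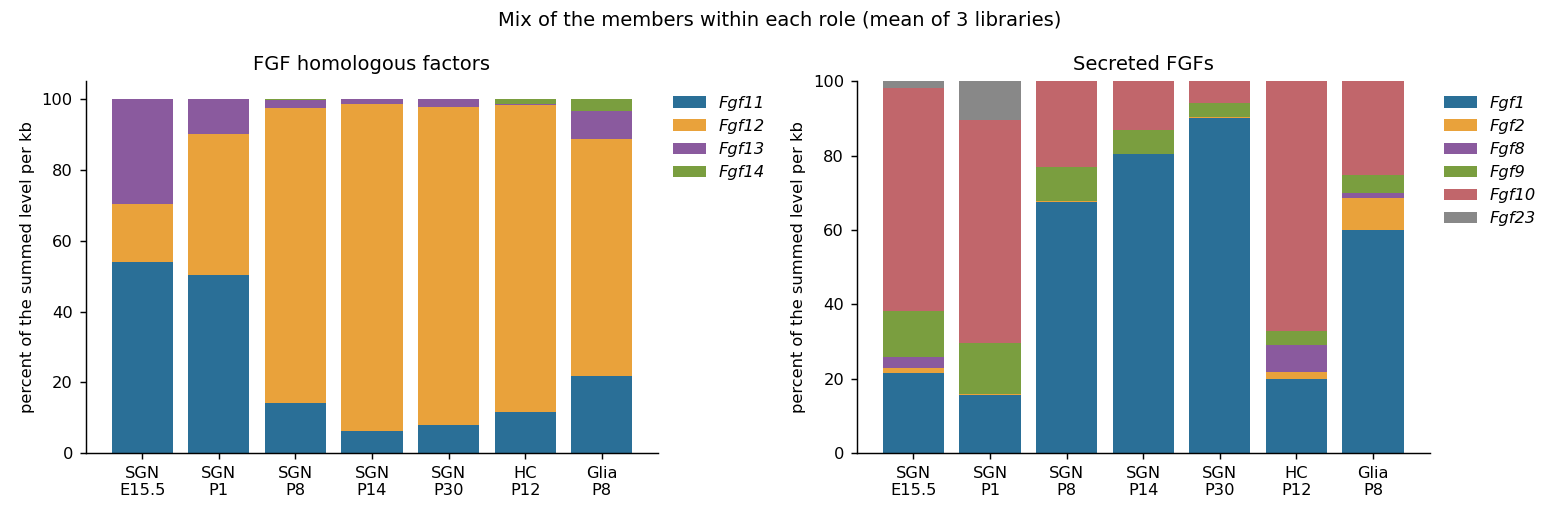
Share of each member in the summed level per kb of its role, in percent, as the mean of 3 libraries in each group. Fgf11 and Fgf10 hold the largest shares at E15.5 and P1, and Fgf12 and Fgf1 from P8 to P30.

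Against HCs at P12, the mean of the 5 SGN ages was higher for Fgf1, Fgf9, Fgf10, Fgf11 and Fgf12, at an adjusted p under 0.01 and over 4-fold. By the same thresholds 10.5% of 17531 genes were higher in SGNs and 16.2% lower. The fold was 28.7 for Fgf1, 30.1 for Fgf9, 32.5 for Fgf11 and 12.7 for Fgf12, with adjusted p of 4.89e-07, 9.13e-06, 7.08e-05 and 1.63e-06. Fgf13 passed the filter through the SGN groups alone, so its call against HCs is not given as support. It was close to nothing in HCs, with 2, 0 and 0 counts, which may be 1 fragment. Its SGN mean was 824 times the HC level by counts, with a 95% counting interval of 228 to 6807. This interval covers the counting error in HCs only and not the spread between SGN libraries. The limma estimate was 8.74 on the log2 scale, given as a size only. Fgf23, with 0 counts in HCs, had its highest SGN level at P1. Fgf10 was 4.38-fold higher, just over the threshold, and was not called with other scalings (log2 change 1.58 with library size only), the filter at CPM over 10, edgeR or DESeq2. HCs held 40.8, 44.9 and 41.1 CPM of Fgf10, which per kb was the highest mean of their members, at 9.19 against 5.18 for Fgf12. Fgf2 did not differ beyond the spread, with a log2 difference of -0.20 and a 95% interval of -1.81 to 1.42.

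Against glial cells at P8, Fgf1, Fgf9, Fgf10, Fgf11 and Fgf12 were higher in the SGN mean, where 14.3% of all genes were higher and 10.4% lower. Their log2 differences were 3.70, 4.95, 4.53, 3.90 and 3.39. Without glial replicate 1 the same genes were called, at 3.52, 6.34, 6.49, 5.49 and 3.50. The glial level of Fgf10 was 57.8 CPM in replicate 1 and 1.75 and 2.33 CPM in the others, that of Fgf11 22.8, 3.15 and 0.582 CPM, and that of Fgf9 10.2, 1.58 and 0.388 CPM. Fgf1, Fgf12 and Fgf13 were highest in replicate 2, where SGN markers summed to 345 CPM. The age-matched comparison of P8 SGNs with glial cells called the same 5 genes, with log2 differences of 4.80 for Fgf1, 5.59 for Fgf9, 5.01 for Fgf10, 3.78 for Fgf11 and 4.23 for Fgf12, where 13.4% of all genes were higher and 7.53% lower. Without glial replicate 1 these were 4.62, 6.97, 6.97, 5.37 and 4.34, and all 5 were called. Fgf11 lost this call without glial replicate 2 or 3. Fgf13 at 1.25, 9.98 and 0.388 CPM in glial cells was not called (3.28 against the SGN mean, adjusted p = 0.0591). DESeq2 called it (2.41), but Fgf13 passed the filter through the SGN groups alone, so this call is not given as support. Without glial replicate 1 the Fgf13 difference was 2.98 (adjusted p = 0.193).

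No member was called between HCs and glial cells by limma, where 16.2% of all genes were called higher in HCs and 8.18% lower. At an unadjusted p under 0.05 in limma there were 2 of 6 members. No share of all genes at that threshold is given, so this count says nothing about the members as a group. The edgeR and DESeq2 tests each called Fgf13 lower in HCs (-6.66 and -6.73 on the log2 scale). Fgf10 was 2.39 higher in HCs on the log2 scale (adjusted p = 0.0373), and 4.36 higher, and called, without glial replicate 1 (adjusted p = 0.00603).

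**Figure D4:**
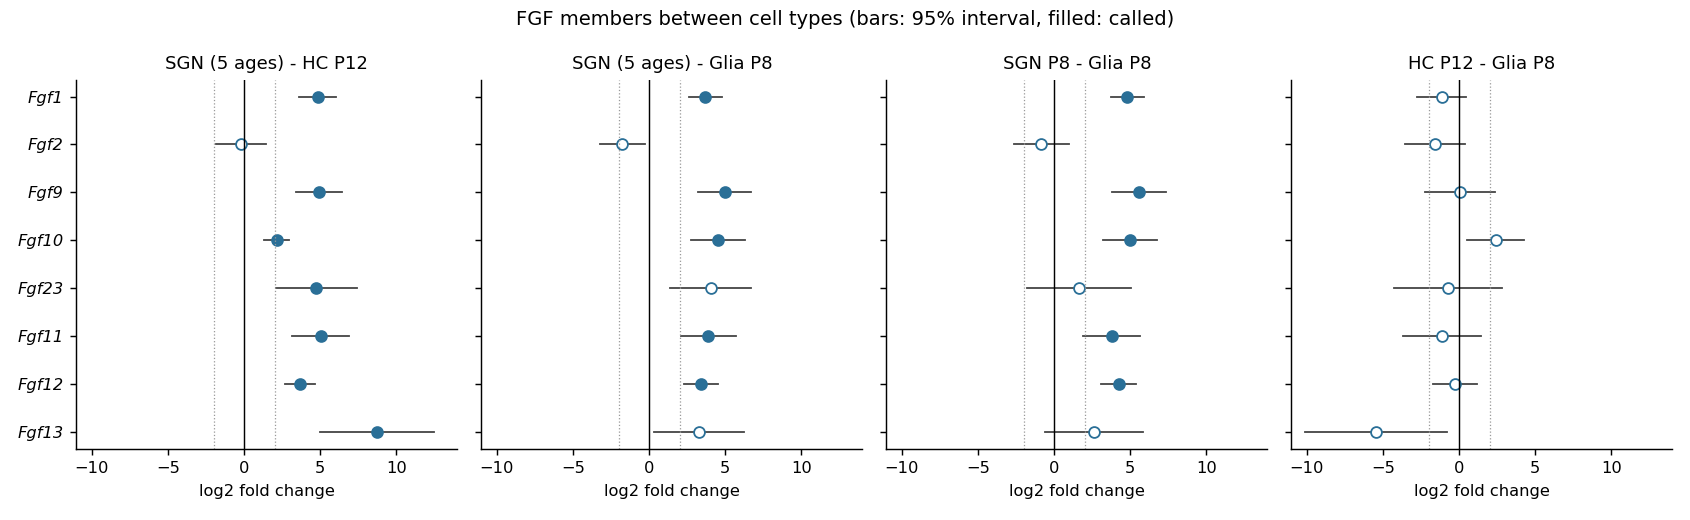
Log2 fold change of the 8 tested members between cell types; bars are 95% intervals, filled points were called (adjusted p under 0.01 and over 4-fold), and dotted lines mark 4-fold. All called members lie on the SGN side, and no point is filled between HCs and glial cells. The called members include Fgf23 and Fgf13, although Fgf23 passed the filter through P1 alone and Fgf13 through SGNs alone.

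In order of level, Fgf1 and Fgf12 ran P30, P14, P8 and P1 in SGNs with no overlap between neighbours, and at the low end glial cells overlapped E15.5 SGNs and HCs. E15.5 SGNs overlapped HCs for Fgf12 and lay above them for Fgf1. For Fgf9 neighbours from P8 down to P1 overlapped, and E15.5 lay apart from P1 above it and from glial cells below it. For Fgf10 every neighbour in the order overlapped except E15.5 SGNs and HCs. For Fgf11 the P30 libraries lay above the P8 libraries and all other neighbours overlapped. For Fgf13 the groups overlapped down to glial cells, which lay above HCs, and for Fgf23 P1 lay above E15.5 and the rest overlapped.

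Of 9 genes for sodium channel alpha subunits, which the homologous factors are known to bind, 8 were tested between ages, and none was called from P8 to P14 or from P14 to P30. From E15.5 to P1, 2 rose, namely Scn1a (3.37) and Scn4a (4.99), and Scn11a fell (-2.93), beside the 5.08% and 3.18% of all genes. Scn1a rose again from P1 to P8 (log2 change 1.67), and Scn8a, the main subunit at nodes of Ranvier, rose from P1 to P8 (1.58) and from P8 to P30 (1.04). Genes that fell from P1 to P8 included Scn2a (-1.17), Scn3a (-1.81) and Scn9a (-1.79), in a step at which 4.29% of all genes rose and 3.15% fell. Scn8a went from 86.1 ± 30.5 CPM at E15.5 to 985 ± 113 CPM at P30 (SD, n = 3), and Scn3a from 221 ± 51.6 to 26.8 ± 5.41 CPM. Scn1a, Scn2a, Scn3a, Scn8a and Scn9a were higher in SGNs than in HCs (5 of 8), where 10.5% of all genes were higher and 16.2% lower. These genes and Scn11a were higher than in glial cells (6 of 8), where 14.3% of all genes were higher and 10.4% lower. Without glial replicate 1 Scn11a lost its call (5.79, adjusted p = 0.0132), and the other 5 were 4.70 to 9.25 higher than in glial cells and called. The median log2 difference of the list was 3.87 against HCs and 4.23 against glial cells, beside 0.02 and 0.22 over all genes.

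**Figure D5:**
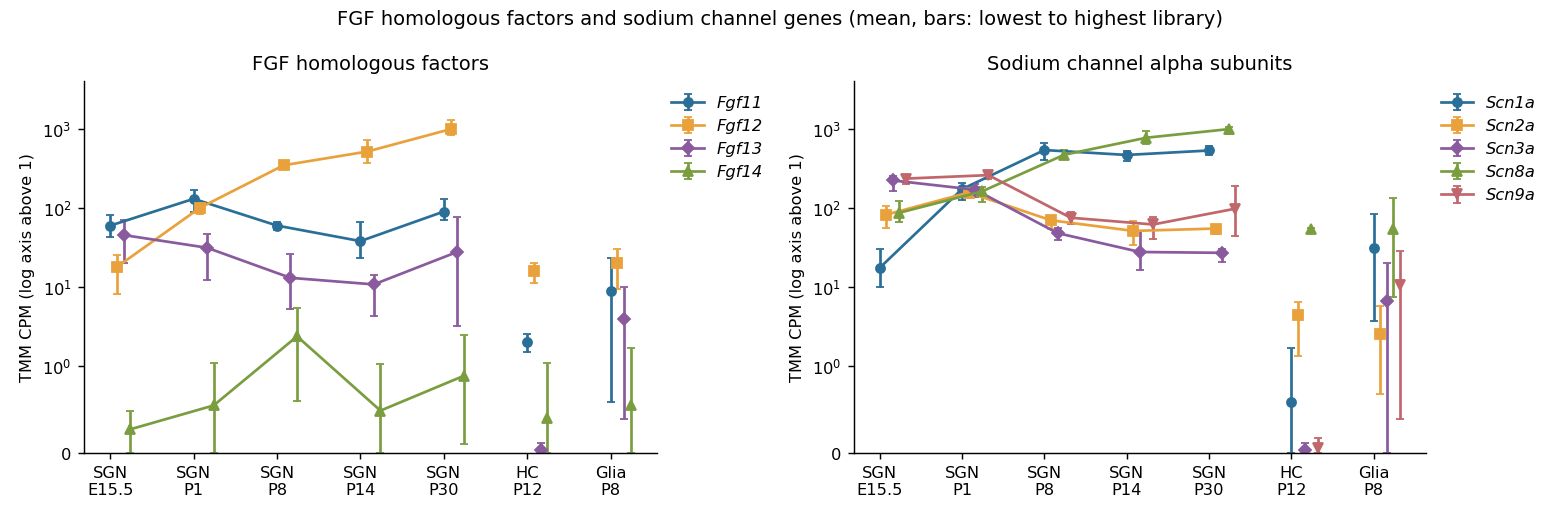
Mean TMM CPM (log axis above 1, linear below) of the FGF homologous factors and of 5 sodium channel alpha subunit genes in the 7 groups; bars run from the lowest to the highest of 3 libraries. Fgf12, Scn1a and Scn8a are higher at P30 than at E15.5, Scn3a is lower, and the bars of Fgf13 at P30 run from 3.19 to 75.1 CPM.

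Of the genes that receive FGF signals, 5 receptors were listed and 3 were tested between ages. Fgfr1 had the highest level per kb of the 5 at each SGN age, 7.86 at E15.5, where it measured 77.6 ± 2.60 CPM. It fell by 1.86 on the log2 scale from E15.5 to P1 (adjusted p = 0.000419), rose by 1.03 from P1 to P8 (adjusted p = 0.0166), and was 1.25 lower at P30 than at E15.5. Glial cells held 116 ± 22.7 CPM and HCs 35.8 ± 5.76 CPM of Fgfr1. Fgfr4 and the decoy receptor Fgfrl1 were lower in SGNs than in HCs (log2 differences -4.89 and -4.70), and no receptor was called against glial cells, with or without glial replicate 1. Kl, which encodes the klotho that Fgf23 needs, was the 1 tested gene of the 2 klotho genes. It was at 4.20 to 9.26 CPM at E15.5 and at most 1.19 CPM at P1, where Fgf23 was highest, and it fell from E15.5 to P1 (log2 change -5.65, adjusted p = 0.0194). HCs held 12.7 to 15.2 CPM of Kl, above all SGN libraries (log2 difference of SGNs -5.85, adjusted p = 5.41e-07).

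Of 12 other FGF ligands, 3 were tested. Fgf18 rose from 11 ± 7.41 CPM at E15.5 to 42.2 ± 11.6 CPM at P1 (log2 change 2.31, adjusted p = 0.0138), reached 75.8 ± 17.4 CPM at P30, and was higher in SGNs than in HCs and glial cells (7.42 and 5.72, the latter 6.52 without glial replicate 1). Fgf5 and Fgf7 were higher in HCs, at 16.8 ± 3.35 and 43.4 ± 9.77 CPM, than in SGNs (log2 differences -5.51 and -5.19).

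Downstream, 1 of 8 adaptors (Shc1) and 1 of 8 tested of 9 feedback inhibitors (Spred3) fell from E15.5 to P1, and none rose, where 3.18% of all genes fell and 5.08% rose. Spred3, an inhibitor of Ras and ERK signalling, fell again from P1 to P8 (log2 changes -1.48 and -2.17), and Spry4 fell from P1 to P8 (-1.10). Dusp6, an ERK phosphatase, was 2.67 lower at P30 than at E15.5 on the log2 scale (adjusted p = 0.0471), and it was lower in SGNs than in glial cells (-4.73, and -4.92 without glial replicate 1), which held 262 ± 114 CPM. Of the 3 Ets factors, Etv1 fell from E15.5 to P1 (-3.11) and was higher at P30 than at P8 (2.13), as was Etv5 (1.30), both in the comparison added after the data were seen. Of the 3 FLRT partners, Flrt1 rose from E15.5 to P1 (1.77) and no other comparison of neighbouring ages called any.

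Among 17 heparan sulfate genes, which make the chains that FGFs bind, 16 were tested between ages. From E15.5 to P1 Hs6st3, a sulfation enzyme, rose (2.02) and the core protein gene Gpc2 fell (-4.10), and from P1 to P8 the core protein genes Sdc1 (-5.29) and Sdc3 (-1.44) fell. Hs6st3 was higher in SGNs than in HCs (10.2 on the log2 scale) and glial cells (5.28, and 7.27 without glial replicate 1). Sdc4 was lower in SGNs than in both (-3.64 and -3.60, the latter -3.45 without glial replicate 1). Of the 3 genes that process FGF23, 2 were tested between ages and none was called. Galnt3, whose product protects FGF23 from cleavage, was lower in SGNs than in HCs and glial cells (-5.70 and -4.45), the latter not called without glial replicate 1 (-4.06, adjusted p = 0.0266), and the kinase gene Fam20c was higher in SGNs than in HCs (3.68).

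The genes whose pattern was most like each member were found among 12286 genes with a mean TPM over 10 in some group, by Pearson r of log2(TPM + 1) over the 21 libraries. Groups of libraries share age, cell type and depth, so high r is common and carries no test. Among the nearest to Fgf1 were Lgi3 (r = 0.971) and Sh3bgrl2 (0.968), and among the nearest to Fgf12 were Got1 (0.980) and Ckb (0.972). Nearest to Fgf9 were Prkcb (0.972), Sytl2 (0.971) and Acsl6 (0.970), to Fgf10 Adcy1 (0.969), Fam171b (0.965) and Kcnq3 (0.963), and to Fgf11 Chrna4 (0.952), Fchsd1 (0.938) and Shank1 (0.937). Fgf13 was most like Prph (0.900), Scn9a (0.890) and Coro1a (0.882). Fgf23 had Ccl21a (0.839), Pnma3 (0.824) and Hpca (0.817), and Fgf2 reached 0.739 with Gm15903, 0.702 with Scarna3a and 0.702 with Gm24787. Over the 15 SGN libraries alone the first gene was Epdr1 for Fgf1 (0.987), Chchd10 for Fgf12 (0.990), Amot for Fgf10 (0.968), Ttyh2 for Fgf9 (0.960), Pnma2 for Fgf11 (0.870), Pirt for Fgf13 (0.882), Gm43461 for Fgf23 (0.917) and Pdzrn3 for Fgf2 (0.817). With TMM CPM in place of TPM, an alternative chosen after the data were seen, the first gene over 21 libraries was again Got1 for Fgf12 (0.983) and Chrna4 for Fgf11 (0.966), and it was another gene for Fgf2, Fgf9, Fgf10, Fgf13 and Fgf23. On that scale Fgf1 and Fgf12 had r = 0.969 with each other over the 15 SGN libraries, and Fgf1 was the second nearest gene to Fgf12 over all 21 (0.975).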

How the data were processed

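RNA of 21 mouse libraries was amplified with oligo-dT and random primers and sequenced as pairs. Per the labels and the methods, the authors aligned reads to mm10 with STAR 2.4.0i and counted them with featureCounts on GENCODE vM15; the strand setting is not given in the sources used here. The authors deposited raw counts per gene with gene lengths. Counts per library were 10368240 to 37287489; 64.3% to 75.0% of low counts were even, so a count can be 1 read of a pair.

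Members and gene lists were chosen with earlier results of these data known. All 10 members are named, and list genes only where called. Values of some list and likeness genes are not reported here. Following the study, TMM scaling (edgeR 4.0.16) and limma-voom (limma 3.58.1, R 4.3.3) with group means were used, two-sided, with Benjamini-Hochberg adjustment over all genes: 15113 genes over 15 SGN libraries for ages (adjusted p under 0.05, over 2-fold), and 17531 genes over 21 libraries for cell types (adjusted p under 0.01, over 4-fold). Genes needed CPM over 1 in all replicates of a group. The test was checked on simulated counts. TPM served only for likeness, with a pseudocount of 1, since 1 gene of 57 bases, Gm23935, took 8.17% to 68.1% of the TPM sum; values are TMM CPM.

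The reported fits used no replicate block. Replicate numbers passed a check for pairing, with all correlations of deviations over 0.1, only for P14 with P30 (0.397, 0.277 and 0.140) and P8 with P30 (0.410, 0.222 and 0.194). With the replicate block as an alternative, 0 and 3 members were called there, as without it. Overlaps and positions are from GENCODE vM21 (GRCm38). Other alternatives were other scalings, filters and tests, quality weights, fewer groups and each replicate left out; P1 to P30, P8 to P30 and TMM likeness were added after seeing the data. The counts without Fgf2 and Fgf23, the list genes without glial replicate 1, the Fgf23 ratio without E15.5 replicate 3 and the bounds for fragments with 2 counts were added after the data were seen.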

Additional observations from a re-analysis of the deposited data

How the results depend on the processing

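Of 88 pairs of a member and a comparison, 37 were called, and none of these reversed under any alternative run. Of these, 24 kept the call throughout and 13 lost it at least once. Counts here include Fgf2 and Fgf23, and also Fgf13 in the comparisons with HCs and glial cells. Entry of these genes into the tests depended on some of the groups compared, and the comparisons share libraries. The counts are therefore not given as support. From E15.5 to P1 the 5 members called became 3 with no CPM filter, 2 with sample quality weights, 3 with only the groups compared, 7 with DESeq2 and 6 with the filter at CPM over 10, and ranged from 4 to 6 without each replicate. From P14 to P30 the 0 became 1 (Fgf12) with sample quality weights, and 0 to 1 without each replicate. Against glial cells the 5 in the SGN mean became 2 (Fgf1 and Fgf10) with sample quality weights, 6 with no CPM filter and 7 with DESeq2 (with Fgf13 and Fgf23), and between HCs and glial cells the 0 became 1 with edgeR quasi-likelihood and 1 with DESeq2 (both Fgf13), and 0 to 1 without each replicate. With the replicate block 6 members were called from E15.5 to P1, where Fgf1 joined at 1.09 (adjusted p = 0.0151), and no other count moved. Only P14 with P30 and P8 with P30 passed the pairing check. Fgf23 from E15.5 to P1 lost its call with edgeR (log2 change 3.76, adjusted p = 0.111) and with quality weights. Fgf10 from P8 to P30 lost its call under 10 alternatives and Fgf2 from P1 to P30 under 7. Fgf8, tested only with no filter, was then called against HCs. Of 36 uncalled pairs with unadjusted p of 0.05 or more, 16 changed sign at least once. All-gene calls ranged from 552 to 1743 around 1248 from E15.5 to P1, 1 to 110 around 9 from P14 to P30, 28 to 219 around 81 from P8 to P14, 638 to 1458 around 1124 from P1 to P8, 311 to 1611 around 712 from P8 to P30, 2849 to 6001 around 4694 against HCs, 2017 to 5064 around 4326 and 1942 to 4133 around 3662 against glial cells, and 2226 to 4901 around 4272 for HCs and glial cells. With library size only, the split of higher and lower calls went from 767 and 481 to 569 and 649 from E15.5 to P1, from 648 and 476 to 421 and 760 from P1 to P8, from 38 and 43 to 19 and 54 from P8 to P14, from 2778 and 2446 to 1698 and 3973 from E15.5 to P30, from 306 and 406 to 216 and 518 from P8 to P30, from 1540 and 1421 to 927 and 2325 from P1 to P30, from 1847 and 2847 to 1331 and 3786 against HCs, and from 2838 and 1434 to 3573 and 1020 for HCs and glial cells. The median of all genes then moved to -0.49 from E15.5 to P30 and to -0.54 against HCs. Of 70 group means, 11 moved by over 1 SD between TPM and TMM CPM per kb. The causes were not tested. Low counts limit Fgf2, Fgf8 and Fgf14, and Fgf23 outside P1.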
